A study of Schizosaccharomyces pombe with 3 samples.

Results

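The genes described here are the most intron-rich coding genes of the fission yeast Schizosaccharomyces pombe. The rule that chose them uses only gene annotation and read depth, though earlier results of these data were known when it was set. It takes coding genes with 8 or more exons and under 6000 bases of exon. Their mean count over the 3 libraries had to be at least 10 reads. The rule took 42 of the 5186 coding genes in a table of 7049 genes, which is 0.81% of the coding genes. A 43rd gene with that many exons, sip1 (10 exons), was left out by its 8086 bases of exon. All 42 members had mean counts between 1157 and 22515.7 reads, far above the limit on depth, and all 42 passed the filter on low counts that preceded the test.

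The RNA came from a slow RNA polymerase II mutant and its parent, and the comparison is of each gene's transcript level between mutant and parent. Elongation rate was not measured in these libraries. The slow mutant carries a single substitution, N494D, in Rpb1, the largest subunit of the polymerase, and 2 independent clones were sequenced, slow #1 (strain FBY2324) and slow #2 (FBY2325), against 1 library of the parental wild type (WT, FBY2323). All 3 strains were h- with the auxotrophic markers ade6-M216 and leu1-32, plus ura4-D18 and his3-D1, and all lacked the fluoride exporters through fex1_delta and fex2_delta, so the wild type is itself a double deletion strain. Cultures were in exponential growth in supplemented minimal medium (EMM), and ribosomal RNA was depleted before stranded libraries were built. Since WT has 1 library, every p-value below rests on the spread between the 2 slow clones (1 residual degree of freedom), which was shared across genes.

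In fission yeast most introns are very short, and the spliceosome recognises each of them through a donor site that starts with GT, a branch point, and an acceptor that ends in AG. Much of this happens while the polymerase is still transcribing, so each additional intron is one more splicing event during elongation. Transcripts that keep an intron are often removed by nuclear surveillance, in which the exosome takes part, or by nonsense-mediated decay in the cytoplasm. The values here are fragments counted over exons on the sense strand. They measure the amount of a gene's RNA, and not the share of it that was spliced.

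The 42 members held 365 introns and 407 exons in the annotation used for counting (build ASM294v2). Exon number ran from 8 in 15 genes and 9 in 12 genes up to 14 in clr6, 15 in rdh54 and 16 in trt1. Between 288 and 787 bases of intron lay in each gene, and the median intron was 47 bases long, with a range of 35 to 266 bases. Exons were short as well, with a median of 168 bases, and 47 of the 407 were under 50 bases. The shortest, of 3, 4 and 5 bases, lay in trk2, rmt1 and spx2. The genes were spread over the genome, with 18 on chromosome I, 15 on chromosome II and 9 on chromosome III, and 17 were on the forward and 25 on the reverse strand.

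**Figure D1:**
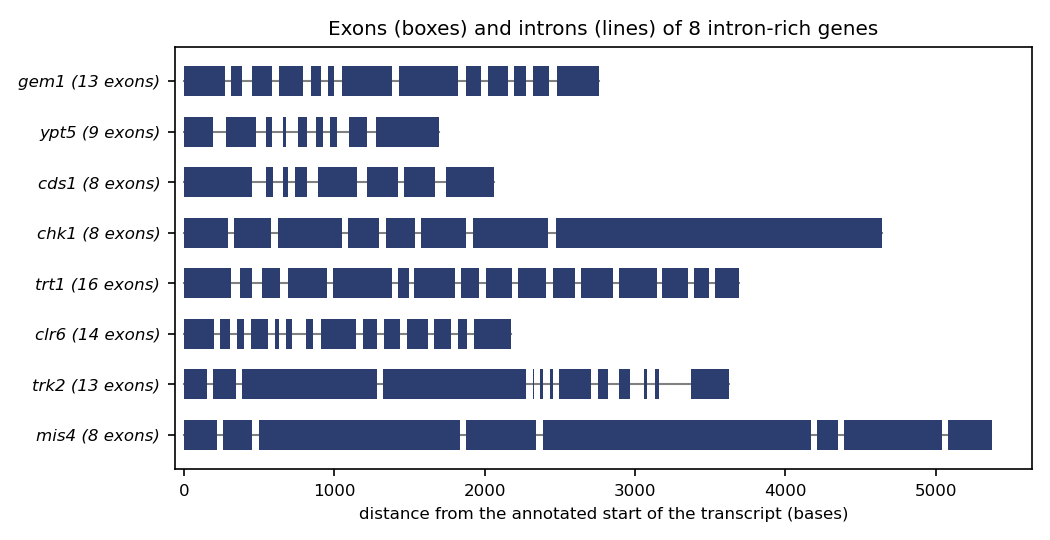
Exons (boxes) and introns (lines) of 8 intron-rich genes, drawn to scale from the annotated start of the transcript, with the horizontal axis in bases. The genes with the most exons are trt1 (16 exons) and clr6 (14 exons), and some introns of clr6 are longer than the exons beside them. A run of very short exons lies in the later part of trk2. The genes chk1 and mis4 have 8 exons each within much longer transcripts.

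Introns between coding exons were also read from the RefSeq annotation of build ASM294v3, where all 42 members were found by locus tag. There the members had 361 such introns with a median of 46 bases (quartiles 42 and 55), against 4691 introns with a median of 56 bases (quartiles 47 and 89) in the other coding genes. Introns under 50 bases were 61.2% of those of the members and 33.9% of those of the other genes. The donor hexamer GTATGT began 11.4% of the members' introns and 20.7% of the others, and GTANGT, which includes GTATGT and GTAAGT, began 42.9% and 54.9%. A branch point match CTNAC in the last 24 bases, searched on the sense strand only, was in 43.5% of the members' introns and 54.2% of the others. With CTNAT allowed as well, the shares were 74.8% and 79.2%. These shares describe the sequences, and a window without the letters does not show that an intron lacks a branch point.

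**Figure D2:**
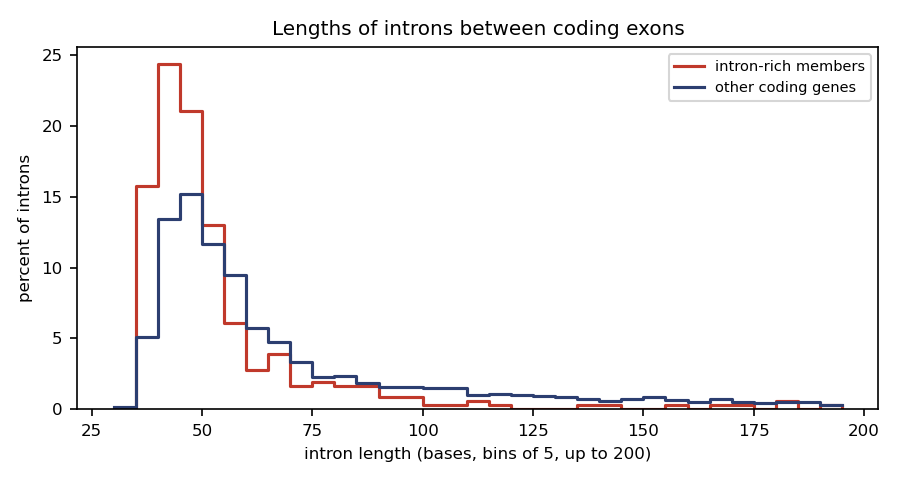
Lengths of introns between coding exons, as the percentage of introns per 5-base bin up to 200 bases, for the 42 intron-rich members (361 introns) and for the other coding genes (4691 introns). The members' distribution peaks at shorter lengths, with medians of 46 bases in the members and 56 bases in the other genes.

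The shortest coding intron of 7 of these genes is shown to give an idea of how little sequence separates their exons, for 3 genes at the high end of the comparison below (gem1, rec11, cds1), for the pair at its low end (chk1, ppk26), and for 2 genes with 16 and 14 exons (trt1, clr6). Capitals mark the first 6 bases, the last match to CTNAC or CTNAT in the final 24 bases where there is one, and the closing AG.
gem1 intron 1 (chrIII:163176-163218, + strand): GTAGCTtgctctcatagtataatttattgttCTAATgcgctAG
rec11 intron 6 (chrIII:1224833-1224869, - strand): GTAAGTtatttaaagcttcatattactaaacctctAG
cds1 intron 6 (chrIII:739963-740000, - strand): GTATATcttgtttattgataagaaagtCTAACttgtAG
chk1 intron 3 (chrIII:1060850-1060887, + strand): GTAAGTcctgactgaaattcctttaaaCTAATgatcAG
ppk26 intron 8 (chrII:2766437-2766473, - strand): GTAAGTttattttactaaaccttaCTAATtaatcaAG
trt1 intron 4 (chrII:2065176-2065211, - strand): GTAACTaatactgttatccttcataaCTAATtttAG
clr6 intron 11 (chrII:849855-849894, - strand): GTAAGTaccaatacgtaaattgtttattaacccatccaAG
All coordinates are those of ASM294v3, and the sequences run 5′ to 3′ on the strand of the gene. The intron of chk1 and that of ppk26 begin with the same hexamer, GTAAGT, as those of rec11 and clr6, and gem1, cds1 and trt1 each have another hexamer.

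The 3-base exon of trk2, a potassium transporter of the plasma membrane, is the smallest of the 407. It is shown with both flanking introns in 1 stretch of 93 bases (chrI:257136-257228, - strand, ASM294v3), with the exon in capitals:
trk2 exon of 3 bases: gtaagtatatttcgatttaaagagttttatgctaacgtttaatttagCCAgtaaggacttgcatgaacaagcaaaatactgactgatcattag

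Library totals were 40746838 counts for slow #1, 30674459 for slow #2 and 31803128 for WT. The transcript of rpb1 itself was at 788 and 837 CPM (normalised read count relative to the library total, scaled by the trimmed mean of M values, TMM) in slow #1 and slow #2, against 792 CPM in WT, which is a log2 fold change of 0.04 (SE 0.16, edgeR's quasi-likelihood test, adjusted p = 0.887). The amount of rpb1 RNA does not check the labels, since the mutant differs from its parent by a substitution that gene counts do not show. CPM values are relative to all RNA in a library, so a change in total RNA per cell is not visible in them, and fewer cells with a transcript cannot be told apart from less of it per cell.

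The RNA of the intron-rich genes differed little between the slow clones and the wild type. None of the 42 passed the test in either direction at an adjusted p under 0.01 with a change above 1.5-fold (edgeR's quasi-likelihood test over 6418 genes, Benjamini-Hochberg adjustment). Of all genes tested, 20 (0.312%) were called higher and 25 (0.390%) lower at that threshold, so a count of 0 among 42 genes is near what the background gives. Without adjustment, 8 members (19.0%) had a p under 0.05 and lay above WT, against 17.5% of all genes tested, and 4 (9.52%) lay below it, against 17.9%. DESeq2 at the same threshold called 2 members higher, gem1 and ypt5, and none lower, against 5.0% and 3.65% of all genes tested. With the adjusted p under 0.05 in edgeR, 3 members were called higher (7.14%, against 6.79% of all genes tested) and 0 lower (against 5.59%). Those 3 were gem1, rec11 and ypt5. Scaled to nda2, act1 and fba1, none of the 3 calls held, with adjusted p of 0.468 for gem1, 0.653 for rec11 and 0.614 for ypt5 and log2 fold changes of 0.51 for rec11 and 0.46 for ypt5, and ypt5 had an adjusted p of 0.0532 with RLE size factors.

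The members' median log2 fold change was -0.07, with a range of -0.42 to 0.79, and 39 of the 42 (92.9%) were within 1.5-fold of the wild type. The other 3 were all higher (7.14%, against 12.9% of all genes tested), and 0 were lower (against 7.73%), while scaled to nda2, act1 and fba1 there was 1 on each side, gem1 at 0.60 and ppk26 at -0.60. In both clones alike, 2 members were past 1.5-fold upward (4.76%, against 9.08% of all genes tested) and 0 downward (against 5.75%). By clone, the median difference from WT was -0.05 in slow #1 and -0.08 in slow #2. The comparison set of single-exon coding genes, taken within the 5th to 95th percentile of the members' exon length and count, held 1265 genes. Its median was -0.09, with 87.2% of its genes within 1.5-fold, so the medians of the members and of the single-exon genes differed by 0.01 (0.05 in slow #1 and 0.02 in slow #2). The median of all 5041 coding genes tested was -0.03, and that of all 6418 genes tested was 0.01. No test of these medians was made, because the genes were not sampled as replicates.

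The members' differences from WT had a small SD, and over all coding genes the SD stood in the order of exon number. In slow #1 the SD of the log2 difference from WT was 0.29 over the 42 members, 0.35 over 130 genes with 6 or 7 exons, 0.36 over 532 genes with 4 or 5 exons, 0.42 over 657 genes with 3 exons, 0.43 over 1131 genes with 2 exons, and 0.51 over 2548 genes with 1 exon. Slow #2 had the same order, with 0.32 over the members and 0.55 over the single-exon genes. The distance between the quartiles did not keep this order. In slow #2 it was 0.46 over the members, wider than the 0.41 over genes with 6 or 7 exons. In slow #1 it was 0.34 over the members, 0.44 over genes with 6 or 7 exons and 0.43 over those with 4 or 5. The classes also differ in length and count, whose part in the order of the SD was not tested. In the single-exon genes of similar length and count the SD was 0.40 in slow #1 and 0.43 in slow #2. The 2 clones were a median of 0.07 apart on the log2 scale in the members and 0.10 apart in the single-exon genes of similar length and count.

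**Figure D3:**
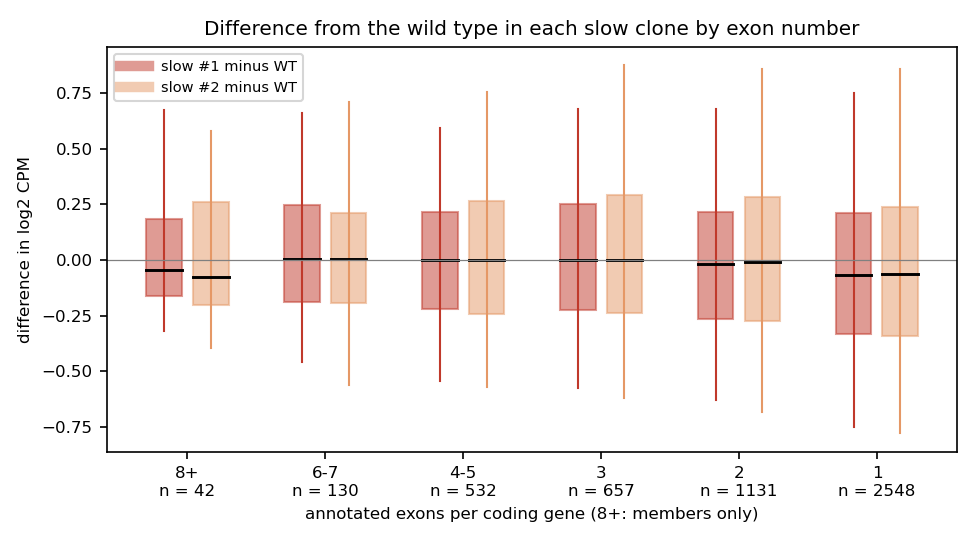
Difference in log2 CPM from WT in slow #1 and slow #2 for coding genes by number of annotated exons, with the median (black line), the quartiles (box) and the 5th to 95th percentiles (thin line). The medians stay near 0 in every class, and the boxes and lines are widest for the 2548 genes with 1 exon.

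Both clones were above WT for 16 of the 42 members and both below it for 22, and the remaining 4, srp2, gih35 and trk2 among them, had a clone on each side. Of all genes tested, 42.7% had both clones above WT and 42.6% had both below it. The single-exon genes of similar length and count stood at 32.9% and 54.5%, so the members' shares of 38.1% and 52.4% lay between that set and the background. The 2 clones ranked the members alike, with a Spearman correlation of 0.90 between their differences over the 42 genes, a description in which both differences share the 1 wild type library. These sides depended on the scaling. With library sizes set by nda2, act1 and fba1, the median of all genes tested moved by -0.18 and the split of the members became 7 above and 29 below, and with upper-quartile factors it became 20 above and 19 below.

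**Figure D4:**
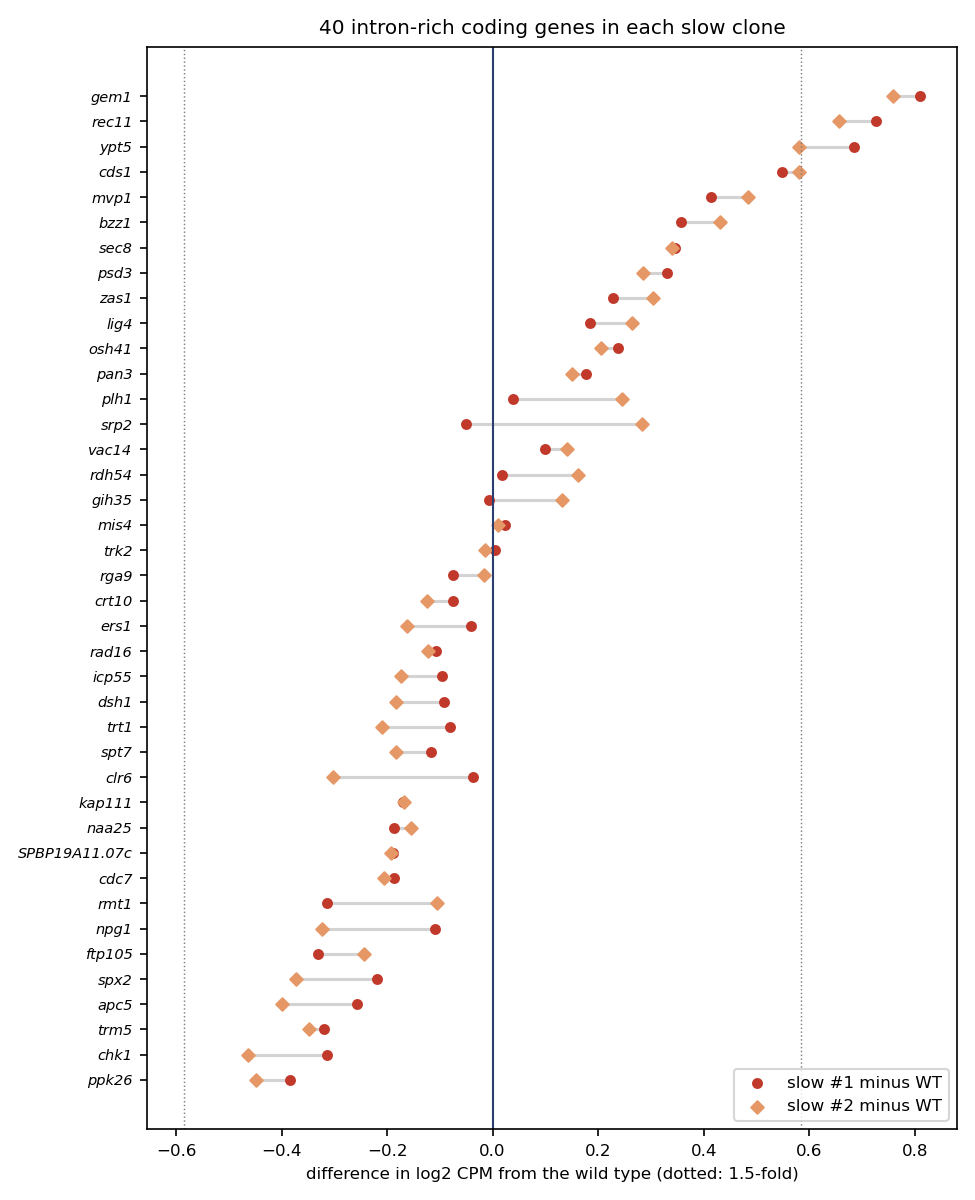
Difference in log2 CPM from WT of 40 of the 42 members in slow #1 (circles) and slow #2 (diamonds), with genes ordered by fitted change and dotted lines at 1.5-fold. Only gem1 and rec11 lie past 1.5-fold in both clones, no gene shown lies past it on the lower side, and the wide pairs belong to srp2, clr6 and npg1.

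Members were grouped by words in their RefSeq product names. The largest named group was that of membrane traffic and lipids, with 11 genes, and it held the highest value of the 42. In 8 of the 11 both clones were above WT and in 3 both were below, against 42.7% and 42.6% of all genes tested. The group median was 0.22. Scaled to nda2, act1 and fba1, the split was 4 and 4 and the median 0.04.

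Within this group, gem1 (SPCC320.04c, chrIII:162907-165664 in ASM294v2, + strand, 13 exons) encodes the GTPase subunit of ERMES, the complex that tethers the endoplasmic reticulum to mitochondria. It was at 337 CPM in slow #1 and 325 CPM in slow #2, against 192 CPM in WT. Both clones were well above WT and close to each other. The log2 fold change was 0.79 (SE 0.13, edgeR's quasi-likelihood test, adjusted p = 0.0200), a 1.72-fold difference and the highest of the 42 members.

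The Rab5-type GTPase of early endosomes, ypt5 (SPAC6F6.15, 9 exons), was the most abundant member per length, at a mean of 557 CPM per kb over the 3 libraries. It had 757 CPM in slow #1 and 705 CPM in slow #2, against 471 CPM in WT, a log2 fold change of 0.63 (SE 0.15, edgeR adjusted p = 0.0417). Slow #1 passed 1.5-fold and slow #2, at a log2 difference of 0.58, fell just short of it. RefSeq gives this gene 8 exons, where the annotation used for counting has 9.

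Another 3 genes of the group with both clones above WT were mvp1, sec8 and psd3. The sorting nexin gene mvp1, of the endosomal retrieval route, was at 35.8 and 37.6 CPM in the slow clones, against 26.9 CPM in WT. Transcripts of sec8, a subunit of the exocyst that tethers secretory vesicles at the plasma membrane, were at 247 and 246 CPM in the slow clones and 194 CPM in WT. The 2 clones gave nearly the same value in each of these genes and the wild type stood below both. For psd3, a phosphatidylserine decarboxylase that makes phosphatidylethanolamine, the values were 147 and 143 CPM in the slow clones and 117 CPM in WT. The log2 fold changes were 0.45, 0.34 and 0.31 for mvp1, sec8 and psd3, with adjusted p of 0.0793, 0.105 and 0.116 in edgeR.

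The oxysterol-binding protein gene osh41, second in level per length among the members at 228 CPM per kb, had a log2 fold change of 0.22 (SE 0.13). The others with both clones above WT were plh1, which makes triacylglycerol, at 0.15, and vac14, which acts in phosphoinositide synthesis, at 0.12. Both of those values were below 0 when scaled to nda2, act1 and fba1. Among the 3 members of the group with both clones below WT were rga9 at -0.05 (above 0 with upper-quartile factors) and npg1, annotated as a GTPase regulator, at -0.21. In npg1 the clones were 37.0 and 31.9 CPM against 39.9 CPM in WT, so that the gap between the clones was larger than that between slow #1 and WT.

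**Figure D5:**
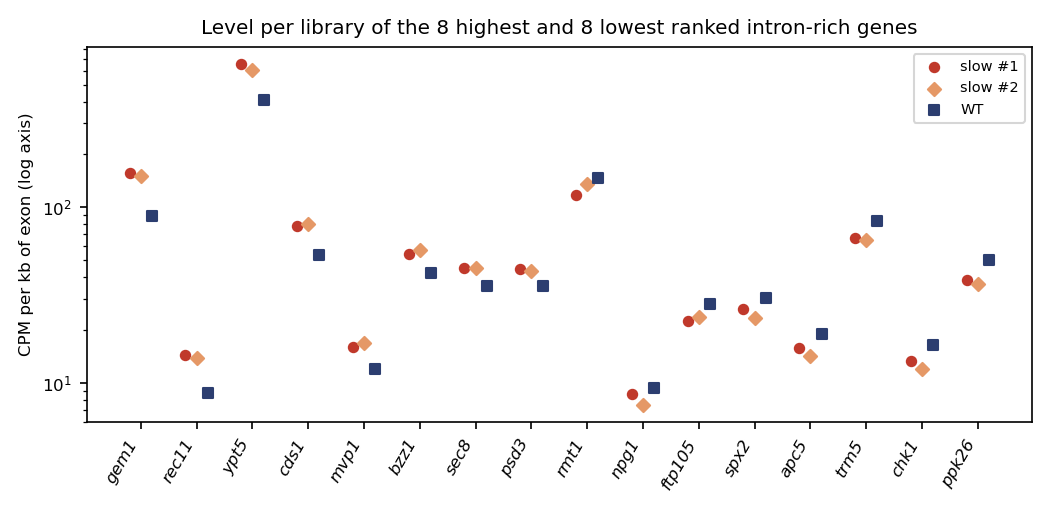
Level per library, in CPM per kb of exon on a log axis, of the 8 members with the highest and the 8 with the lowest fitted log2 fold change, for slow #1, slow #2 and WT. Both slow clones lie above WT for gem1 through psd3 and below WT for rmt1 through ppk26, while the genes themselves span from under 10 to over 557 CPM per kb.

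Genes whose product names held words for chromatin, transcription and DNA repair made up 8 of the members. Both clones were above WT in 5 and below in 3, against 42.7% and 42.6% of all genes tested. The words left out related genes. Of these, chk1 (log2 fold change -0.39) and the SAGA subunit gene spt7 (-0.15) had both clones below WT. The cohesin loader gene mis4 (0.02) had both just above it. Scaled to nda2, act1 and fba1, the split of the 8 was 2 and 4. The gene rec11 (SPCC4E9.01c, 9 exons) encodes a cohesin subunit that acts in meiosis together with Rec8. It was low in all 3 libraries, at 45.5 CPM in slow #1 and 43.4 CPM in slow #2, against 27.5 CPM in WT. Both clones were past 1.5-fold, with a log2 fold change of 0.69 (SE 0.14, edgeR adjusted p = 0.0279).

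The replication checkpoint kinase gene cds1 (SPCC18B5.11c, 8 exons) was at 127 and 130 CPM in the slow clones, against 86.8 CPM in WT. The log2 fold change was 0.57 (SE 0.12, edgeR adjusted p = 0.0293), just under 1.5-fold. The other checkpoint kinase gene among the members, chk1 (SPCC1259.13, 8 exons), which acts after DNA damage, lay on the opposite side. It had 57.1 and 51.5 CPM in the slow clones, against 71.0 CPM in WT, a log2 fold change of -0.39 (SE 0.13, edgeR adjusted p = 0.0857). The 2 kinase genes have the same number of exons.

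Among the other genes of the chromatin and repair group, zas1 and lig4, the ligase of DNA end joining, were at log2 fold changes of 0.27 and 0.22. The nuclease gene rad16, the XPF of fission yeast, was at -0.11. The catalytic subunit of telomerase, trt1, has the most exons of any member, 16, and was at 82.6 and 75.6 CPM in the slow clones, against 87.4 CPM in WT (log2 fold change -0.14, SE 0.12). The recombination translocase gene rdh54, with 15 exons, was at 56.4 and 62.3 CPM in the slow clones and 55.7 CPM in WT. Its log2 fold change of 0.09 (SE 0.13) was -0.10 when scaled to nda2, act1 and fba1.

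The class I histone deacetylase gene clr6, with 14 exons, was at 154 and 128 CPM in the slow clones, against 158 CPM in WT. Slow #1 was thus nearly at the wild type level and slow #2 below it, and the log2 fold change of -0.16 (SE 0.15) had an adjusted p of 0.461 in edgeR. The genes with 13 exons were gem1, the highest of all members, and trk2, at 201 and 199 CPM in the slow clones and 201 CPM in WT. Over the 42 members the Spearman correlation of the log2 fold change with exon number was 0.07, with the total length of introns 0.12, with the median intron length 0.15, and with exon length -0.03. The size of the change without its sign had a correlation of -0.18 with exon number. All are descriptions over genes measured in the same 3 libraries.

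The 5 members of RNA processing and translation had no gene with both clones above WT and 3 with both below it, where 42.7% and 42.6% of all genes tested were. The split was 2 and 2 with upper-quartile factors, and 0 and 5 when scaled to nda2, act1 and fba1. The product-name words left pan3 and ppk26, both annotated to a complex that shortens poly(A) tails, outside this group. Both clones were above WT for pan3 and below it for ppk26. Of the 5, trm5, a tRNA guanine methyltransferase, was the lowest, at 102 and 100 CPM in the slow clones, against 128 CPM in WT (log2 fold change -0.33, SE 0.11, edgeR adjusted p = 0.0885). The helicase gene gih35 was at 0.06, while crt10 and ers1, an RNA silencing factor, were both at -0.10. The SR protein gene srp2, whose product shuttles with messenger RNA and takes part in splicing, was at 319 CPM in slow #1 and 402 CPM in slow #2, against 330 CPM in WT. Its clones lay on either side of WT and were 0.33 apart on the log2 scale, the widest gap among the members. The fitted log2 fold change was 0.13 (SE 0.17), and -0.07 when scaled to nda2, act1 and fba1.

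The lowest value of all was that of ppk26 (SPBC336.14c, 12 exons), annotated as a subunit of the PAN complex, which shortens poly(A) tails. It was at 72.6 and 69.4 CPM in the slow clones, against 94.7 CPM in WT, and both clones were below WT by more than they differed from each other. The log2 fold change was -0.42 (SE 0.11, edgeR adjusted p = 0.0578). The other member annotated to that complex, pan3, was on the other side with a log2 fold change of 0.16 (SE 0.12), although it shares 161 same-strand exon bases with another annotated gene, SPRRNA.15, and its value was below 0 when scaled to nda2, act1 and fba1.

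The remaining members belonged to various functions or had none assigned by these words. The F-BAR protein gene bzz1, whose budding yeast counterpart acts at endocytic actin patches, was at 126 and 133 CPM in the slow clones, against 98.6 CPM in WT (log2 fold change 0.40, SE 0.12, edgeR adjusted p = 0.0687). On the lower side, apc5, a subunit of the anaphase-promoting complex, was at 41.8 and 37.9 CPM in the slow clones and 49.97 CPM in WT. The gene spx2, with an SPX domain of the kind that binds inositol pyrophosphates, was at 81.6 and 73.5 CPM in the slow clones and 95.1 CPM in WT. Both clones were below WT in each of these, with log2 fold changes of -0.33 for apc5 and -0.29 for spx2 and adjusted p of 0.143 and 0.148 in edgeR.

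For ftp105, whose product binds the deubiquitinase Ubp5, the values were 78.4 and 83.2 CPM in the slow clones and 98.6 CPM in WT, a log2 fold change of -0.29 (SE 0.12). The arginine methyltransferase gene rmt1 was at 150 and 173 CPM in the slow clones, against 187 CPM in WT. Here slow #1 was the lower clone and slow #2 stood near WT, and the log2 fold change of -0.21 had an SE of 0.14. A regulatory subunit of the NatB acetyltransferase, naa25, came after srp2 (197 CPM per kb) in level per length, at 150 CPM per kb, and had a log2 fold change of -0.17 (SE 0.13).

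Further log2 fold changes were those of mis4, the cohesin loader (0.02), icp55 (-0.13), dsh1 (-0.14) and spt7 (-0.15). The karyopherin gene kap111 was at -0.17, the uncharacterised SPBP19A11.07c at -0.19 and the septation kinase gene cdc7 at -0.20. The sign of mis4 turned with scaling to nda2, act1 and fba1. Exon bases were shared on the same strand with another gene in 7 members, pan3, cdc7, icp55, rad16 and spt7 among them. The counting options given in the study's methods do not include the one that assigns a fragment to overlapping genes, so fragments over shared bases may be missing from both. None of the 16 genes at the high and low ends was among these 7.

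Summed over all 42 members, the RNA came to 6130 CPM in slow #1 and 6124 CPM in slow #2, against 5723 CPM in WT. Of this, gem1, rec11 and ypt5 together held 1139 and 1073 CPM in the slow clones and 691 CPM in WT. The other 39 members summed to 4991 and 5050 CPM in the slow clones, against 5032 CPM in WT, so that slow #1 lay below WT and slow #2 above it. The 3 genes were picked here by their own values, and the split is a description.

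The genes that carry out splicing are background to these values, and 89 of 90 listed spliceosome genes were found in the table and tested. None passed at an adjusted p under 0.01 with a change above 1.5-fold in edgeR, and DESeq2 called 5 higher and 0 lower at that threshold, where it called 5.0% and 3.65% of all genes tested. Without adjustment, 16 had a p under 0.05 above WT and 9 below it, where 17.5% and 17.9% of all genes tested did. The median log2 fold change of the list was 0.07, and -0.11 when scaled to nda2, act1 and fba1. The U1-associated protein gene usp109 had the smallest adjusted p, with 158 and 165 CPM in the slow clones, against 86.8 CPM in WT (log2 fold change 0.89, SE 0.12, edgeR adjusted p = 0.0122).

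Of the same list, the splicing factor gene syf2 was at 99.7 and 104 CPM in the slow clones and 56.0 CPM in WT. Transcripts of lsm6 and lsm3, subunits of the ring that binds U6 RNA, were at 221 and 221 CPM and at 212 and 241 CPM in the slow clones, against 121 and 132 CPM in WT. In all 4 genes both clones were above WT by more than they differed from each other. The log2 fold changes were 0.86 for syf2, 0.87 for lsm6 and 0.78 for lsm3, with adjusted p of 0.0134, 0.0138 and 0.0226 in edgeR. The ring's subunits did not all lie on 1 side. Transcripts of lsm2 were at 23.4 and 21.4 CPM in the slow clones, against 38.0 CPM in WT (log2 fold change -0.76, SE 0.15, edgeR adjusted p = 0.0270). With TMM factors it was the only subunit of the ring on this list with a fitted value below WT. The log2 fold changes of the rest were 0.63 for lsm8, 0.37 for lsm5, 0.19 for lsm7 and 0.05 for lsm4. Scaling to nda2, act1 and fba1 moved the median of all genes tested by -0.18, a shift larger than the value of lsm4. Only srp2 belongs both to this list and to the intron-rich genes.

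Nuclear and cytoplasmic RNA surveillance was represented by 12 genes, all tested, and none passed at an adjusted p under 0.01 in edgeR, while DESeq2 called 0 higher and 1 lower (against 5.0% and 3.65% of all genes tested). Without adjustment, 2 had a p under 0.05 above WT and 3 below it, against 17.5% and 17.9% of all genes tested. The list's median was -0.18, with both clones above WT in 2 of the 12 and below it in 8, where 42.7% and 42.6% of all genes tested were. Scaled to nda2, act1 and fba1, the median was -0.36 and the split 2 and 10. That with the smallest adjusted p was dis3, a 3′-5′ exonuclease of the exosome, at 243 and 238 CPM in the slow clones, against 379 CPM in WT (log2 fold change -0.66, SE 0.12, edgeR adjusted p = 0.0246).

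The 15 members with exactly 8 exons had a median log2 fold change of -0.10, the 46 genes with 7 exons and under 6000 bases 0.01, and the 83 genes with 6 exons and under 6000 bases -0.0015. At the low end of these 7-exon genes, dtd1 at -1.27, vrs2 at -0.56 and aip1 at -0.53 were past the lowest member. At the high end only hop1, at 0.87, was past the highest member. The next, mug137 at 0.57 and ham1 at 0.53, were below gem1, rec11 and ypt5. Within 1.5-fold of WT were 95.7% of the 7-exon genes and 92.9% of the members. The gene left out for its length, sip1, was at 0.17.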

How the data were processed

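Before deposit, the authors ran Trimmomatic 0.36 for trimming and STAR 2.5.1 for alignment, and counted fragments over exons, stranded, with featureCounts (version not given in the sources used here), on build ASM294v2. The deposited table holds raw counts per gene with each gene's exon coordinates and summed exon length. Library totals ranged over 30674459 to 40746838 counts. Genes with low counts were removed with filterByExpr (minimum count 10, minimum total 15), which left 6418 of 7049. The slow clones were compared with WT in edgeR 4.0.16 (R 4.3.3) by the quasi-likelihood test with TMM factors. A call needed an adjusted p under 0.01 and a change above 1.5-fold, and SE is the fitted change over the root of the F statistic. Differences by clone were taken between log2 CPM values (2 counts added as a prior). The Wald test of DESeq2 1.42.0 was an alternative. The test was tried on simulated counts first. Of the IDs, 6844 matched RefSeq, which gave symbols, product names and the sequences (ASM294v3).

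The members and lists were chosen with earlier results of these data known. Genes described with values were the 8 highest and 8 lowest members by fitted change, the 5 with the most exons, the 5 highest in CPM per kb, the 3 with the widest gap between clones, members on the spliceosome or surveillance lists, and the 4 spliceosome genes with the smallest adjusted p. Another 2 members are counted but not reported singly here. Others named (further members, the 7-exon genes, sip1, dis3, lsm2, lsm4, lsm5, lsm7 and lsm8) were picked after their values were seen. Replicates are clones of the mutant, with 1 WT library.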

Additional observations from a re-analysis of the deposited data

How the results depend on the processing

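Alternatives were other scalings, no filter, DESeq2, an adjusted p under 0.05, other limits on exons and length, and each clone alone. For all genes, 20 calls higher and 25 lower became 0 and 0 with RLE factors (smallest adjusted p 0.0102), 379 and 333 with library totals, 127 and 129 without the filter, 321 and 234 with DESeq2, and 436 and 359 at an adjusted p under 0.05. Scaled to nda2, act1 and fba1, 18 were higher and 39 lower, or 31.6% higher, against 44.4% with TMM. Members called higher, 0, became 2 with library totals (gem1, rec11), 2 with DESeq2 and 3 at an adjusted p under 0.05, and members called lower, 0, became 1 at 6 or more exons. Spliceosome genes called higher, 0, became 6 with library totals, 3 without the filter, 5 with DESeq2 and 7 at an adjusted p under 0.05. Those called lower, 0, became 1 with library totals and 1 at an adjusted p under 0.05. The members' median of -0.07 was -0.0116 with upper-quartile factors, -0.25 scaled to nda2, act1 and fba1, -0.0038 at 6 or more exons, -0.0181 at 10 or more, -0.0181 under 3000 bases, and -0.0752 to -0.0455 in single clones. The members' difference from single-exon genes, 0.01, was 0.0751 at 6 or more exons, 0.0783 at 10 or more, 0.0702 under 3000 bases, 0.0053 with single-exon genes inside the members' whole range, -0.0105 with all single-exon genes under 6000 bases, and 0.0168 to 0.0524 in single clones. Signs also turned for rdh54 (-0.0983) and srp2 (-0.0729) scaled to nda2, act1 and fba1, and for trk2 (0.0564) with upper-quartile factors. The cause of these shifts was not tested. Calls from a single clone could not be fitted, since no residual degree of freedom remains. No paired analysis was possible because WT has 1 library with no replicate number. With 2 clones and 1 WT library, the SE of a member's log2 fold change was 0.11 to 0.17.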
